A study of Mus musculus with 8 samples.

Results

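Gentle touch of hairy skin is sensed in part by unmyelinated afferents of the dorsal root ganglia called C low-threshold mechanoreceptors (C-LTMRs). The comparison described here set male mice without Bhlha9 against male wild type mice, gene by gene, over all genes that these neurons expressed above a low level. Bhlha9 encodes a transcription factor with a basic helix-loop-helix domain. Proteins of this class pair with one another and bind DNA at a short motif called the E-box. The series title concerns temperature choice and formalin pain in mice that lack the gene, and a difference between the sexes in these behaviours.

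RNA was sequenced from GFP-positive cells sorted from adult animals, and the labels describe the cells as C-LTMRs. The series holds 8 libraries in 4 groups, and the comparison used 4 of them. The genotype labels read bhlha9 KO for 2 male libraries (male_KO1 and male_KO2) and Wild Type for the other two (male_WT1 and male_WT2). The design text calls the 2 libraries of a group biological replicates. Which transgene carried the GFP, how many animals gave each sample and the mouse strain are not given in the sources used here. Female libraries of both genotypes are used below to set values side by side and to test the difference between the sexes. They also enter an alternative fit over all 8 libraries.

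Members were all genes with a mean of 5 CPM (a gene's read count per 1000000 counts of its library, not corrected for gene length) or more over the 4 male libraries. This selected 11893 of the 55573 genes counted. Between 98.39 and 98.86% of all counts in the male libraries fell in these genes. The mean reached 5 CPM in both genotypes for 11230 genes, in KO alone for 410 genes and in WT alone for 253 genes. Genes of the latter kinds could enter only by being high in one genotype.

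Male WT libraries held 62633518 and 63055815 counts, and male KO libraries 56500253 and 65816312. At that depth 3 counts equal between 0.0456 and 0.0531 CPM, a limit that covers counting error only. One library stood apart from the rest. The Pearson correlation of log2(CPM + 0.5) across genes was between 0.881 and 0.902 for male_KO1 with each other male library, and between 0.931 and 0.949 among the other 3. Genes that lay at least 2-fold apart made up 7.11% between the WT libraries and 16.3% between the KO libraries. In male_KO1 alone, 287 genes stood at least 2-fold above all 3 other libraries and 294 at least 2-fold below them. The corresponding counts in male_KO2 were 65 and 121. Values without male_KO1 are given below beside the medians of lists and beside log2 fold changes that moved by over 1.5 times.

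The sorted cells carried the RNA of C-LTMRs in all 4 libraries. Th, tyrosine hydroxylase, a defining enzyme of these neurons, had 4885 and 4522 CPM in WT against 3039 and 4080 CPM in KO. Fam19a4, encoding a secreted protein of C-LTMRs, had 344.6 and 430.0 CPM in WT against 226.9 and 331.0 CPM in KO. For both genes the KO libraries lay below the WT libraries. Summed over 11 C-LTMR markers, WT libraries held 8461 and 8493 CPM and KO libraries 5588 and 7615 CPM, the lower one being male_KO1. In bulk RNA, fewer cells of a type and less of its RNA per cell cannot be told apart.

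Bhlha9 (ENSMUSG00000044243, chromosome 11, 76672470 to 76673676, GRCm38) checked the genotype labels. Its level was 152 and 163 CPM in WT, against 0.159 and 0.273 CPM in KO. The counts behind these levels were 9550 and 10252 in WT against 9 and 18 in KO. WT and KO libraries were thus far apart, with a few reads left in each KO library. The log2 fold change, KO against WT, was -9.47 (SE 0.41). The quasi-likelihood F test of edgeR over 20147 genes gave it a Benjamini-Hochberg adjusted p of 0.0593, just short of the threshold of 0.05. A fit restricted to genes of 5 CPM or more, which Bhlha9 entered only through WT, gave an adjusted p of 5.23e-05.

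Because E-boxes are the class of site that helix-loop-helix factors bind, the 250 bases upstream of a start site are shown for the deleted gene and for the genes Hook2 and Calca, which are described below. Sequences are from RefSeq (GRCm38.p6), 5′ to 3′ on the strand of the gene, and capitals mark each E-box (CANNTG, a palindrome and so the same on both strands).
Bhlha9, chr11:76672220-76672469, plus strand: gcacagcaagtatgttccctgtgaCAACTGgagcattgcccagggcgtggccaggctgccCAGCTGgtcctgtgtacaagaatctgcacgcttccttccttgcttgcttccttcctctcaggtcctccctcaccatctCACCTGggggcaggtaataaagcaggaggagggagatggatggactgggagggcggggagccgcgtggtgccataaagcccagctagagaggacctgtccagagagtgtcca
Hook2, chr8:84990373-84990622, plus strand: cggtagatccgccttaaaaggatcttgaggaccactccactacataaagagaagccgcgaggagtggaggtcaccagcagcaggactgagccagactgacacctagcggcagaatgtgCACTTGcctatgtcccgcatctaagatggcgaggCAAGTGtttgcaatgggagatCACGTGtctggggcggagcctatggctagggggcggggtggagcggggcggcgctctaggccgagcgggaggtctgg
Calca, chr7:114636358-114636607, minus strand: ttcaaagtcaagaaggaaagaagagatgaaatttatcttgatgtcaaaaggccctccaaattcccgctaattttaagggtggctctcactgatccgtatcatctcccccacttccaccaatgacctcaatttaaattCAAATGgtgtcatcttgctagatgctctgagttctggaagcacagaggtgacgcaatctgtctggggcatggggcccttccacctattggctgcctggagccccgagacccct
The Bhlha9 and Hook2 windows hold 3 E-boxes each and the Calca window 1. The end of the Hook2 window overlaps the start of the Ensembl gene model. Such a motif is common. It was present in 66.2% of all 32851 windows of this length and in 57.1% of the 10869 windows that belong to genes of 5 CPM or more. Genes that stood apart between the genotypes were close to that share, with 61.2% of 289 windows for genes higher in KO and 54.6% of 141 windows for genes lower in KO. A match describes letters in a window and not a bound site.

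The median log2 fold change over the 11893 genes was 0.0024, and 50.3% of them were positive. TMM scaling centres fold changes near 0, so this balance is set by the scaling. No gene passed an adjusted p of 0.05 in the edgeR test on the 4 libraries (0 of 20147 tested, 0%), while 946 (4.7%) had an unadjusted p below 0.05. The Wald test of DESeq2 on the same counts called 377 genes, 301 higher in KO (1.43% of 21084) and 76 lower (0.36%). Of the genes of 5 CPM or more it called 138 higher (1.16%) and 13 lower (0.109%). With 2 libraries against 2, an exact permutation test of one gene cannot go below p = 0.333, two-sided. The verbs below therefore describe where libraries lay, and adjusted p values are edgeR's unless DESeq2 is named.

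Genes were called separated when the lowest library of one genotype was at least 1.5 times the highest of the other, after adding 0.5 CPM to each. By this description 273 genes (2.3%) were separated and higher in KO, and 135 (1.14%) were separated and lower. Of the higher ones 138 reached 5 CPM only through the KO libraries, and of the lower ones 57 only through the WT libraries. The remainder, with both genotypes at 5 CPM or more, counted 135 higher and 78 lower genes. Milder non-overlap was far more frequent and had more lower genes than higher ones, with both KO libraries above both WT libraries for 1569 genes (13.2%) and below them for 1893 (15.9%). If the genotype labels were exchangeable, a gene would show such non-overlap, in either direction, with a probability of 0.333. These counts alone therefore do not show a difference between the genotypes.

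**Figure D1:**
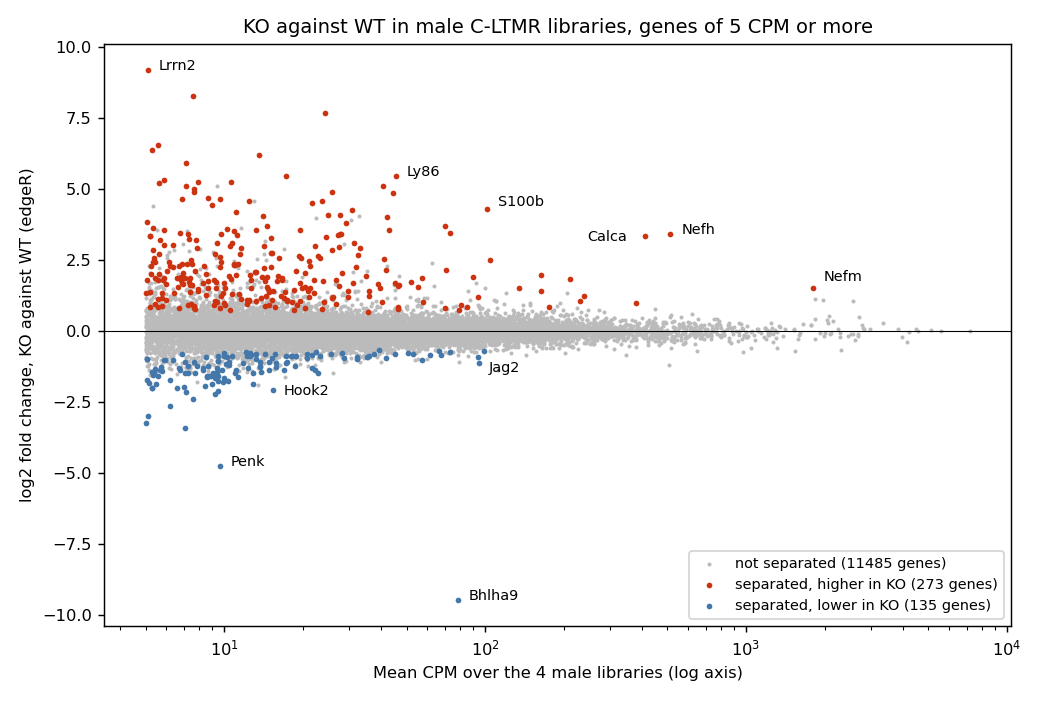
Each point is one of 11893 genes, with the mean CPM over the 4 male libraries on a log axis and the edgeR log2 fold change of KO against WT on the vertical axis. Red points (273 genes) are separated and higher in KO, blue points (135 genes) separated and lower, and Bhlha9 lies lowest at -9.47.

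Separation was more frequent among genes at low levels. Among genes of 5 to 10 CPM, 5.37% were separated and higher in KO and 3.21% separated and lower. Among genes of 300 CPM or more, 4 of 543 were separated and higher (0.737%) and 0 were lower. The spread between replicates was also larger at low levels, with a median fold between the KO libraries of 1.57 at 5 to 10 CPM and 1.28 at 100 to 300 CPM. At every level the median fold between the KO libraries exceeded that between the WT libraries and that between the genotype means. The fold between genotype means rests on averages of 2 libraries, so it is not a like measure to a fold between single libraries.

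**Figure D2:**
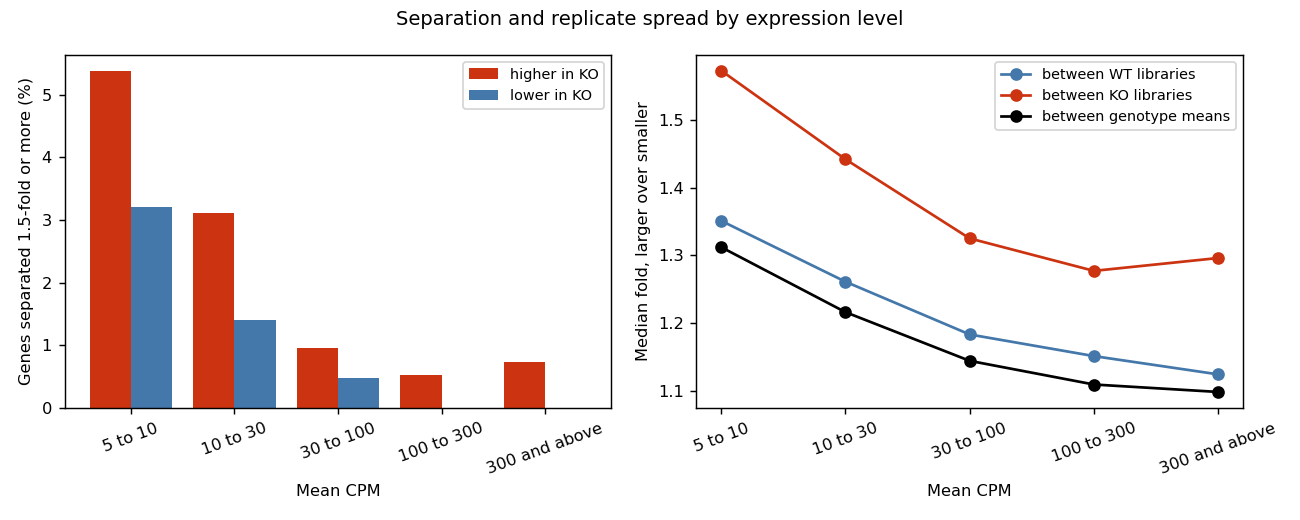
Left, the percentage of genes separated by 1.5-fold or more in 5 classes of mean CPM, red for higher and blue for lower in KO. Right, the median fold between the WT libraries, between the KO libraries and between genotype means in the same classes, with the KO replicates highest throughout, at 1.57 in the lowest class. Genotype means average 2 libraries each, so their fold is not a like measure to a fold between single libraries.

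The 10 genes with the smallest p among those higher in KO without overlap were Calca, Htra1, Ly86, Tmem233, Zbtb20, Lrrn2, Prkca, Dgki, Gm765 and Gng8. Only Calca, Zbtb20 and Prkca reached 5 CPM in both genotypes, and the others reached it only through KO. Calca (chromosome 7, 114631478 to 114636357) encodes calcitonin gene-related peptide, a vasodilator peptide of peptidergic nociceptors. It had 59.8 and 89.2 CPM in WT against 591 and 897 CPM in KO, about 10.1-fold apart in the means (log2 fold change 3.33, SE 0.36). Htra1, a secreted serine protease, had 4.65 and 3.35 CPM in WT against 68.7 and 40.7 CPM in KO (3.77, SE 0.42). In both genes each KO library exceeded each WT library several times over, and which KO library was higher differed between them.

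Zbtb20, a zinc finger repressor of transcription, had close replicates in both genotypes. It had 24.5 and 24.9 CPM in WT against 99.4 and 80.0 CPM in KO (log2 fold change 1.86, SE 0.24). Ly86, a secreted partner of an immune receptor, stood at 2.06 CPM in both WT libraries and at 48.8 and 129 CPM in KO (5.45, SE 0.62). The replicates agreed closely in WT and differed more than 2-fold in KO for Ly86. Tmem233, a small membrane protein, stood at 4.10 and 2.19 CPM in WT against 45.8 and 71.5 CPM in KO (4.23, SE 0.50). Gm765, a predicted gene, was at 2.51 and 1.24 CPM against 29.1 and 54.3 CPM (4.49, SE 0.60).

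Prkca is a protein kinase C that diacylglycerol activates, and Dgki is a kinase that removes diacylglycerol. Prkca had 7.10 and 5.58 CPM in WT against 36.6 and 54.3 CPM in KO (log2 fold change 2.85, SE 0.37). Dgki had 1.68 and 2.35 CPM in WT against 17.7 and 23.2 CPM in KO (3.36, SE 0.45). Gng8, a G protein gamma subunit, rested on levels of 0.0639 and 0.174 CPM in WT against 7.70 and 14.4 CPM in KO. Lrrn2, a leucine-rich repeat membrane protein, had 0 and 2 counts in the WT libraries and stood at 9.59 and 10.8 CPM in KO, so no fold is given. All 10 genes had an edgeR adjusted p of 0.862.

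The 10 genes at the head of those lower in KO were Bhlha9, Penk, Hook2, Zfp810, Gpatch3, Scarb1, Xpo4, Galnt3, Jag2 and Cenpj. Only Hook2 and Jag2 reached 5 CPM in both genotypes, and the others reached it only through WT. Penk (chromosome 4, 4133531 to 4138819), the precursor of enkephalin opioid peptides, had 15.6 and 21.6 CPM in WT against 0.796 and 0.562 CPM in KO (log2 fold change -4.77, SE 0.50). Hook2 (chromosome 8, 84990603 to 85003349), an adaptor that links cargo to microtubules, had 23.5 and 26.3 CPM in WT against 5.10 and 6.52 CPM in KO (-2.09, SE 0.36). Both genes were low in each KO library, and the replicates of a genotype lay close together.

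Several of the others act in the nucleus. Zfp810, a zinc finger protein, had 17.4 and 13.3 CPM in WT against 3.86 and 3.18 CPM in KO (log2 fold change -2.12, SE 0.42). Gpatch3, a protein with a glycine-rich domain, had 10.8 and 7.44 CPM in WT against 0.885 and 1.35 CPM in KO (-3.01, SE 0.60). Xpo4, an exportin that carries proteins out of the nucleus, had 14 and 14.3 CPM in WT against 3.98 and 3.62 CPM in KO (-1.89, SE 0.40). The libraries of these genes did not overlap, and each KO library lay well below the lower WT library.

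Scarb1, a receptor for high-density lipoprotein, had 16.2 and 9.39 CPM in WT against 2.32 and 2.48 CPM in KO (-2.41, SE 0.50). Galnt3, which starts O-linked sugar chains, stood at 9.42 and 13.0 CPM against 2.94 and 2.70 CPM (-1.98, SE 0.46). Cenpj, a centriole protein, was uneven in WT at 14.3 and 3.95 CPM and stood at 0.903 and 0.988 CPM in KO (-3.26, SE 0.83). Jag2, a ligand of Notch receptors, had 121 and 126 CPM in WT against 57.0 and 71.5 CPM in KO (-0.93, SE 0.24). Apart from Bhlha9, each of these genes had an edgeR adjusted p of 0.862.

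**Figure D3:**
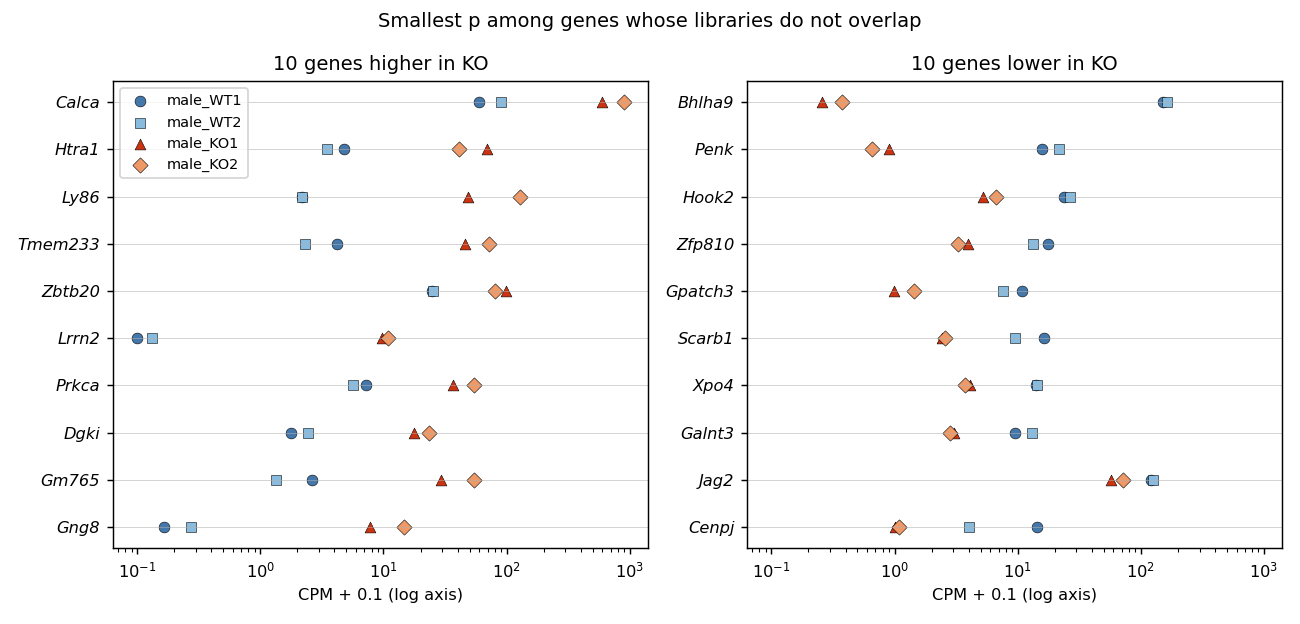
CPM plus 0.1 on a log axis in each of the 4 male libraries, for the 10 genes higher in KO (left) and the 10 lower in KO (right) with the smallest p among genes without overlap. Red and orange symbols (KO) lie apart from blue ones (WT) in every row, from 591 and 897 CPM against 59.8 and 89.2 CPM for Calca to 0.159 and 0.273 CPM against 152 and 163 CPM for Bhlha9.

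The fit restricted to genes of 5 CPM or more called 10 genes at an edgeR adjusted p below 0.05. They were Bhlha9 and Penk among the lower genes, and Ly86, Calca, Htra1, Lrrn2, Tmem233, Gm765, Gng8 and Scg2 among the higher genes. Their adjusted p values lay between 5.23e-05 and 0.0416. Of these genes only Calca and Scg2 reached 5 CPM in both genotypes. Bhlha9 and Penk entered this fit only through WT, and the other higher genes only through KO. Scg2, a granin of dense-core vesicles, had 15.6 and 9.79 CPM in WT against 87.0 and 182 CPM in KO. The common biological coefficient of variation was 34.5% in that fit and 65.6% in the fit on 20147 genes.

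Among genes with a mean of 100 CPM or more, 13 were separated and all were higher in KO. They included Nefm, Nefh, Calca, Fos, Clu, Tac1, Map7d2, Egr1, Jun, Tuba4a, C230004F18Rik and S100b, of which Fos, Clu and Egr1 were singled out after their values were seen. Nefh and Nefm, the heavy and medium neurofilament chains of large axons, differed most in male_KO1. Nefh had 105 and 73.0 CPM in WT against 1584 and 291 CPM in KO (log2 fold change 3.38, SE 0.84, and 1.74 without male_KO1). Nefm had 959 and 937 CPM in WT against 3844 and 1475 CPM in KO (1.48, SE 0.47, and 0.67 without male_KO1). S100b, a calcium-binding protein of glia and large neurons, stood at 14.9 and 5.0 CPM against 328 and 60.2 CPM (4.28, SE 1.02, and 2.63 without male_KO1). These genes were above WT in both KO libraries, while most of their distance came from male_KO1.

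Tubulin and microtubule-associated genes had 2 of 45 members separated and higher (4.44%, against 2.3% of all genes), Tuba4a and Map7d2. The list had 27 positive and 18 negative members and a median of 0.07, and 0.11 without male_KO1. Tuba4a, an alpha tubulin, had 91.8 and 49.5 CPM in WT against 242 and 155 CPM in KO (log2 fold change 1.49, SE 0.40). Map7d2, a microtubule-associated protein, stood at 106 and 80.8 CPM against 491 and 168 CPM (1.81, SE 0.53, and 0.88 without male_KO1). Map1b, another microtubule-associated protein, did not overlap but was not separated, at 1414 and 1116 CPM against 3320 and 2038 CPM (1.08, SE 0.30, and 0.72 without male_KO1). C230004F18Rik, a long noncoding RNA, stood at 33.7 and 29.5 CPM against 277 and 78.6 CPM (2.48, SE 0.62, and 1.35 without male_KO1). In each of these genes male_KO1 was the highest library.

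The peptide Tac1, the substance P precursor, had 132 and 173 CPM in WT against 341 and 282 CPM in KO (log2 fold change 1.04, SE 0.24). Jun, a subunit of the AP-1 factor and an early response gene, stood at 109 and 71.5 CPM against 251 and 224 CPM (1.40, SE 0.28). The early response genes Fos and Egr1 lay in the same direction, Fos at 294 and 216 CPM in WT against 526 and 473 CPM in KO and Egr1 at 140 and 113 CPM against 238 and 212 CPM. Clu, the secreted chaperone clusterin, stood at 141 and 147 CPM against 438 and 227 CPM. Adjusted p in the edgeR test was at least 0.862 for all 13 genes.

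At 30 to 100 CPM, 38 further genes (0.956% of 3973) were separated and higher in KO. Described by role after their values were seen, they included genes of dense-core vesicles and secreted peptides. Besides Scg2, these were Nmb, the neuromedin B precursor, at 24.7 and 24.3 CPM in WT against 64.1 and 94.1 CPM in KO, and Ptprn, a phosphatase-like vesicle protein, at 10.2 and 5.44 CPM against 71.3 and 46.0 CPM. Signalling enzymes among them were Plcb3, a phospholipase C, at 12.3 and 8.07 CPM against 35.9 and 224 CPM, and Prkar2b, a regulatory subunit of protein kinase A, at 24.8 and 21.6 CPM against 37.9 and 103 CPM. The KO libraries of these 2 enzymes differed widely, with male_KO2 high.

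Extracellular proteins formed another part of the 38. Sdc3, a heparan sulfate proteoglycan, had 28.8 and 28.1 CPM in WT against 91.0 and 73.1 CPM in KO. Ptn, the heparin-binding growth factor pleiotrophin, stood at 19.7 and 10.1 CPM against 58.6 and 35.8 CPM. Serping1, an inhibitor of complement proteases, stood at 13.9 and 8.74 CPM against 31.4 and 74.5 CPM. Of these 3, Sdc3 had the closest replicates. Potassium channel genes included Kcnb2, at 62.3 and 58.4 CPM against 102 and 94.5 CPM, and Kcnc1, at 5.68 and 7.47 CPM against 98.0 and 15.0 CPM. Slc17a7, a vesicular glutamate transporter, showed how 1 library can set a value. It had 3.42 and 2.46 CPM in WT against 165 and 5.97 CPM in KO.

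Genes separated and lower in KO reached at most 30 to 100 CPM in the mean, with 19 of 3973 (0.478%) in that class. Besides Bhlha9 and Jag2 they included regulators of transcription and growth, chosen for mention after their values were seen. Ubtf, a factor of ribosomal RNA transcription, had 81.1 and 77.6 CPM in WT against 47.6 and 39.9 CPM in KO. Myc, a growth-promoting transcription factor, stood at 47.3 and 44.7 CPM against 22.1 and 26.4 CPM. Zfp423, a zinc finger factor, stood at 49.1 and 36 CPM against 23 and 21.4 CPM. The KO replicates of these 3 genes lay within a narrow range.

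Cdk7, the kinase of the general factor TFIIH, had 50.4 and 45.2 CPM in WT against 28.9 and 25 CPM in KO (log2 fold change -0.82, SE 0.26). The ubiquitin ligase genes Trim62 and Trim67 of the tripartite motif family lay lower as well. Trim62 stood at 130 and 132 CPM against 40.8 and 76.3 CPM, and Trim67 at 95.1 and 90.3 CPM against 57.9 and 51.3 CPM. Cacna1h, the T-type calcium channel of C-LTMRs, had 125 and 123 CPM in WT against 78.2 and 71.6 CPM in KO (-0.72, SE 0.21). The WT replicates of these genes lay close together, and all had an edgeR adjusted p of 0.862 or more.

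Above 100 CPM the genes lower in KO without overlap lay nearer to WT. The 8 with the largest fold were Rgs11, Arid5a, Wfdc2, Nek1, Dolpp1, Nptx2, Aatk and Nploc4, and none was separated. Rgs11, which ends G protein signals, had 103 and 220 CPM in WT against 91.2 and 34.5 CPM in KO (log2 fold change -1.37, SE 0.59, and -2.20 without male_KO1). Arid5a, an RNA-binding protein, stood at 154 and 164 CPM against 78.8 and 104 CPM (-0.79, SE 0.25). Nptx2, a pentraxin secreted at synapses, stood at 345 and 419 CPM against 195 and 285 CPM (-0.66, SE 0.28, and -0.39 without male_KO1). Fold changes of the other five lay between -0.73 and -0.66. Without male_KO1, Dolpp1 moved from -0.69 to -0.37 and Nploc4 from -0.66 to -0.36. Unadjusted p for these genes ranged from 0.024 to 0.0751, and adjusted p from 0.862 to 1.

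Markers of other cells were read beside these genes, because a sort can hold more than one type. Peptidergic nociceptor markers summed to 706 and 763 CPM in WT and to 1558 and 2099 CPM in KO. Of the 9 markers that reached 5 CPM, 8 were positive and 4 separated (44.4%, against 2.3% of all genes), with a median log2 fold change of 1.73, and 2.51 without male_KO1. Of the 9, 3 reached 5 CPM only through KO, among them the separated marker Gpx3. Calcb, a second gene for the same peptide as Calca, lay lower in KO at 372 and 395 CPM against 320 and 369 CPM. Trpv1, the heat and capsaicin channel, had 0 and 8.10 CPM in WT against 5.15 and 40.3 CPM in KO, so its libraries overlapped.

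Myelinated afferent markers summed to 1685 and 1496 CPM in WT and to 6541 and 2288 CPM in KO. Of 12 that reached 5 CPM, 11 were positive and 6 separated and higher (50%, against 2.3% of all genes), with a median log2 fold change of 1.63, and 0.72 without male_KO1. Of the 12, 4 reached 5 CPM only through KO, among them the separated markers Pvalb, Vsnl1 and Etv1. Pvalb, the calcium buffer of proprioceptors, had 2.73 and 1.05 CPM in WT against 84.9 and 6.15 CPM in KO. Nonpeptidergic and pruriceptor markers summed to 128 and 91.8 CPM in WT and to 126 and 333 CPM in KO, so that male_KO2 alone was high. Mrgprd, the receptor that defines nonpeptidergic nociceptors, stood at 3.35 and 1.32 CPM against 38.5 and 119 CPM (log2 fold change 5.09, SE 0.83). It reached 5 CPM only through KO. The part of other afferents in the genes described above was not tested.

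Glia and Schwann cell markers summed to 5901 and 3847 CPM in WT and to 5882 and 5861 CPM in KO, and male_WT2 was the low library. Of the 10 markers that reached 5 CPM, 1 of them only through KO, 8 were positive, 4 higher without overlap (against 13.2% of all genes) and 2 separated and higher (20%, against 2.3%). Their median log2 fold change was 0.87, and 0.62 without male_KO1. Sox10, the glial lineage factor and the marker that reached 5 CPM only through KO, had 5.84 and 1.59 CPM in WT against 12.3 and 10.5 CPM in KO. Immune markers were low in both genotypes, with summed levels of 30.6 and 53.0 CPM in WT and of 23.8 and 14.3 CPM in KO, and Itgam and Cd3e had 0 counts in all 4 libraries. Vascular and fibroblast markers summed to 360 and 460 CPM in WT and to 497 and 360 CPM in KO, most of it Rgs5. The fibroblast gene Dcn had 0 and 0.825 CPM in WT against 27.6 and 3.49 CPM in KO. C-LTMR markers had 10 of 11 members negative, 6 of them without overlap (against 15.9% of all genes). Of the 11, 1 was separated and lower (9.09%, against 1.14%). The median of that list was -0.38, and -0.17 without male_KO1.

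**Figure D4:**
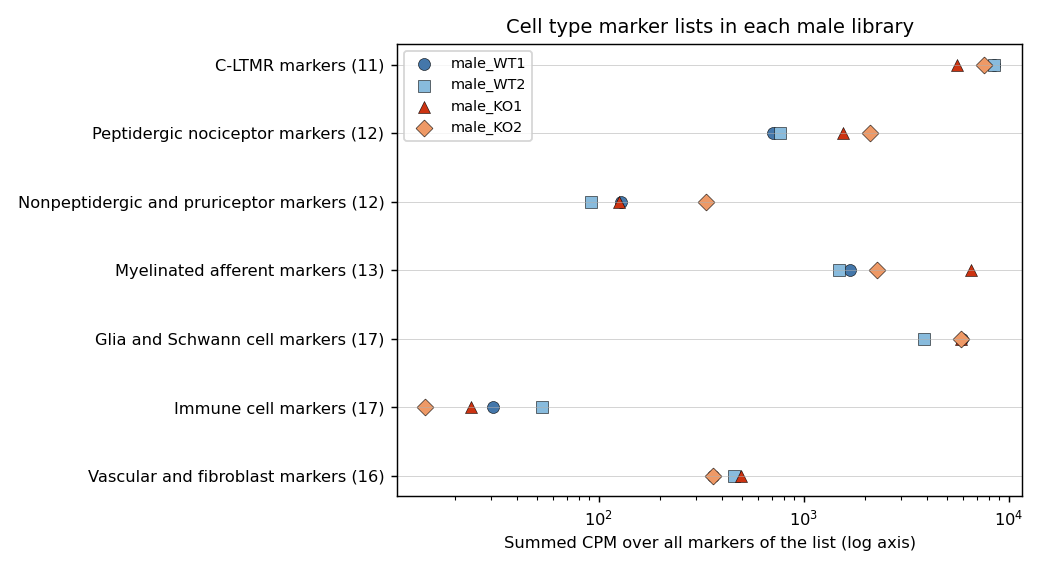
Summed CPM over all markers of each of 7 cell type lists, on a log axis, in each of the 4 male libraries. Peptidergic markers lie at 1558 and 2099 CPM in KO against 706 and 763 CPM in WT, myelinated afferent markers are highest in male_KO1 at 6541 CPM, and C-LTMR markers are lowest there at 5588 CPM.

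Beyond cell markers, 59 lists of cellular functions were read, and their medians lay near 0. These median log2 fold changes lay between -0.29 and 0.14, 43 of them within 0.1 of 0, with 27 positive and 32 negative. For 33 of the 59 lists no member was separated. Together with the marker lists they held 1858 of the 11893 genes (15.6%) and 61 of the 408 separated genes (15.0%). The others, 227 higher and 120 lower, were in no list.

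Machinery that every cell uses lay near the median of all genes. Proteasome subunits had a median of 0.07 over 34 genes with 0 separated (0.0080 without male_KO1), and deubiquitinases -0.01 over 33 genes (0.10 without it). V-type ATPase subunits had a median of 0.02 over 18 genes (0.12 without male_KO1), and translation factors 0.05 over 48 genes (-0.0043 without it). Spliceosome proteins had a median of -0.07 over 37 genes (-0.18 without male_KO1), with 11 lower and 3 higher without overlap, against 15.9% and 13.2% of all genes. Ribosome biogenesis factors, which build ribosomes in the nucleolus, had 24 of 36 negative (median -0.07, and -0.16 without male_KO1). Of the 36, 11 were lower and 1 higher without overlap, again against 15.9% and 13.2% of all genes. Among them Nop2, a ribosomal RNA methyltransferase, had 29.3 and 25.8 CPM in WT against 18 and 17.1 CPM in KO (log2 fold change -0.64, SE 0.29). Mitochondrial ribosomal proteins had a median of 0.09 over 75 genes, which was -0.17 without male_KO1.

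The Notch and interferon lists had the lowest medians of the 59. Notch signalling is a contact pathway in which ligands of the Jagged and Delta kind on one cell activate receptors on its neighbour. Of 17 Notch genes, 13 were negative, 7 lower without overlap (against 15.9% of all genes) and 2 separated and lower (11.8%, against 1.14%). One member, the receptor Notch1, named here after its values were seen, was separated and higher (5.88%, against 2.3%). It reached 5 CPM only through KO. The ligand was Jag2, given above. Maml2, a coactivator of the receptor, had 16 and 12.2 CPM in WT against 5.12 and 3.71 CPM in KO (log2 fold change -1.68, SE 0.43). Maml2, 1 of the 2 separated and lower members, reached 5 CPM only through WT. Hes1, a target repressor of the pathway, stood at 23.3 and 12.4 CPM against 8.37 and 4.73 CPM (-1.45, SE 0.52). The median of the list was -0.29 with all libraries and -0.0034 without male_KO1, while Jag2, Maml2 and Hes1 stayed lower in male_KO2 alone.

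Interferon response genes had 18 of 28 negative and a median of -0.28, and -0.27 without male_KO1. Members nevertheless lay on both sides. Jak1, a kinase of cytokine receptors, had 61.7 and 54.1 CPM in WT against 159 and 102 CPM in KO (log2 fold change 1.17, SE 0.29). Trim25, a ubiquitin ligase of antiviral signalling, was at 2.22 and 4.01 CPM against 9.52 and 11.7 CPM (1.77, SE 0.52). Irf7, an interferon regulatory factor, was at 11.3 and 5.14 CPM against 2.83 and 3.92 CPM (-1.27, SE 0.61). Jak1 and Trim25 were separated and higher (7.14%, against 2.3% of all genes), and Irf7 was not separated. Trim25 and 1 other member reached 5 CPM only through KO, and 4 members, Irf7 among them, only through WT. One member, Usp18, a protease that removes the ubiquitin-like ISG15, was separated and lower (3.57%, against 1.14%). It also reached 5 CPM only through WT, and was named after its values were seen. Usp18 had 15.8 and 5.63 CPM in WT against 3.38 and 0.106 CPM in KO (-2.64, SE 1.52, and -6.60 without male_KO1).

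DNA methylation genes had 12 of 15 negative, with a median of -0.16, and -0.29 without male_KO1. Of the 15, 0 were separated and 2 were lower without overlap, against 15.9% of all genes. Dnmt3a, a de novo DNA methyltransferase, had 40.4 and 37.1 CPM in WT against 19.1 and 25.1 CPM in KO (log2 fold change -0.80, SE 0.30). Circadian clock genes had 11 of 16 negative and 2 separated and lower (12.5%, against 1.14% of all genes). These were Nfil3, a clock output repressor, at 33.8 and 31.8 CPM against 18.8 and 18.6 CPM (-0.81, SE 0.27), and Cry1, a core clock repressor, at 15.5 and 16.5 CPM against 9.12 and 9.24 CPM (-0.80, SE 0.35). Their replicates were nearly equal within each genotype. The median of the clock list was -0.06, and -0.25 without male_KO1.

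In some lists of structure and synapse the share of separated and higher members was above the 2.3% of all genes, on counts of 2 or 3. Cilium genes had 3 of 36 separated and higher (8.33%) with a median of 0.12, and 0.05 without male_KO1. They were Bbs5, a protein of the BBSome coat, at 4.95 and 6.41 CPM in WT against 12.4 and 15.9 CPM in KO (log2 fold change 1.33, SE 0.42), Ift74 (1.22, SE 0.42) and Ift122 (2.45, SE 0.80). Ift122, a subunit of the retrograde transport train, stood at 3.69 and 9.59 CPM against 16.2 and 55.3 CPM. Integrin and laminin genes had 3 of 18 (16.7%) with a median of 0.01, and -0.06 without male_KO1, and 2 of the 3 reached 5 CPM only through KO. The third was Parva, an actin-binding partner of integrin-linked kinase, at 4.79 and 6.77 CPM against 48.4 and 19.2 CPM (2.54, SE 0.55).

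Postsynaptic scaffold genes had 3 of 22 (13.6%) with a median of 0.10, and -0.04 without male_KO1. Homer2, a scaffold of glutamate receptors, had 21.1 and 22.2 CPM in WT against 44.6 and 56.1 CPM in KO (log2 fold change 1.23, SE 0.28). Camk2g, a calcium and calmodulin-dependent kinase, stood at 23.7 and 18.9 CPM against 96.8 and 41.1 CPM (1.69, SE 0.46, and 0.98 without male_KO1). Camk2a, a related kinase that reached 5 CPM only through KO, stood at 1.29 and 5.44 CPM against 15.6 and 16.1 CPM (2.24, SE 0.76). Synaptic adhesion genes had 2 of 35 separated and higher (5.71%), Lrrtm1 (1.91, SE 0.44) and Ptprd (2.01, SE 0.54). Both reached 5 CPM only through KO, as did 3 of the 35 in all, and the list's median was 0.07, and 0.03 without male_KO1. Septins, spectrins and ankyrins also had 2, of 24 (8.33%), with a median of 0.14, and 0.08 without male_KO1. Ank1, an ankyrin that anchors membrane proteins to spectrin, had 8.54 and 10.2 CPM in WT against 36.3 and 23.3 CPM in KO (1.67, SE 0.37), and Sept6, a septin, at 60.3 and 62.0 CPM against 114 and 105 CPM (0.84, SE 0.21).

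Metabolic lists depended on which KO library was read. Cholesterol synthesis genes had a median of 0.01, which was 0.28 without male_KO1. Glycolysis genes had a median of -0.11, which was 0.08 without it, and lysosomal genes moved from -0.11 to 0.16. Over the 66 lists, 25 medians changed sign without male_KO1 and 16 without male_KO2. Leaving out a WT library changed the sign of 7 medians for male_WT1 and of 18 for male_WT2. Within metabolism, Hsd17b7, an enzyme of cholesterol synthesis, was higher without overlap at 35.9 and 31.6 CPM in WT against 62.5 and 49.2 CPM in KO (log2 fold change 0.73, SE 0.26). Every gene named from a function list had an edgeR adjusted p of 0.862 or more.

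**Figure D5:**
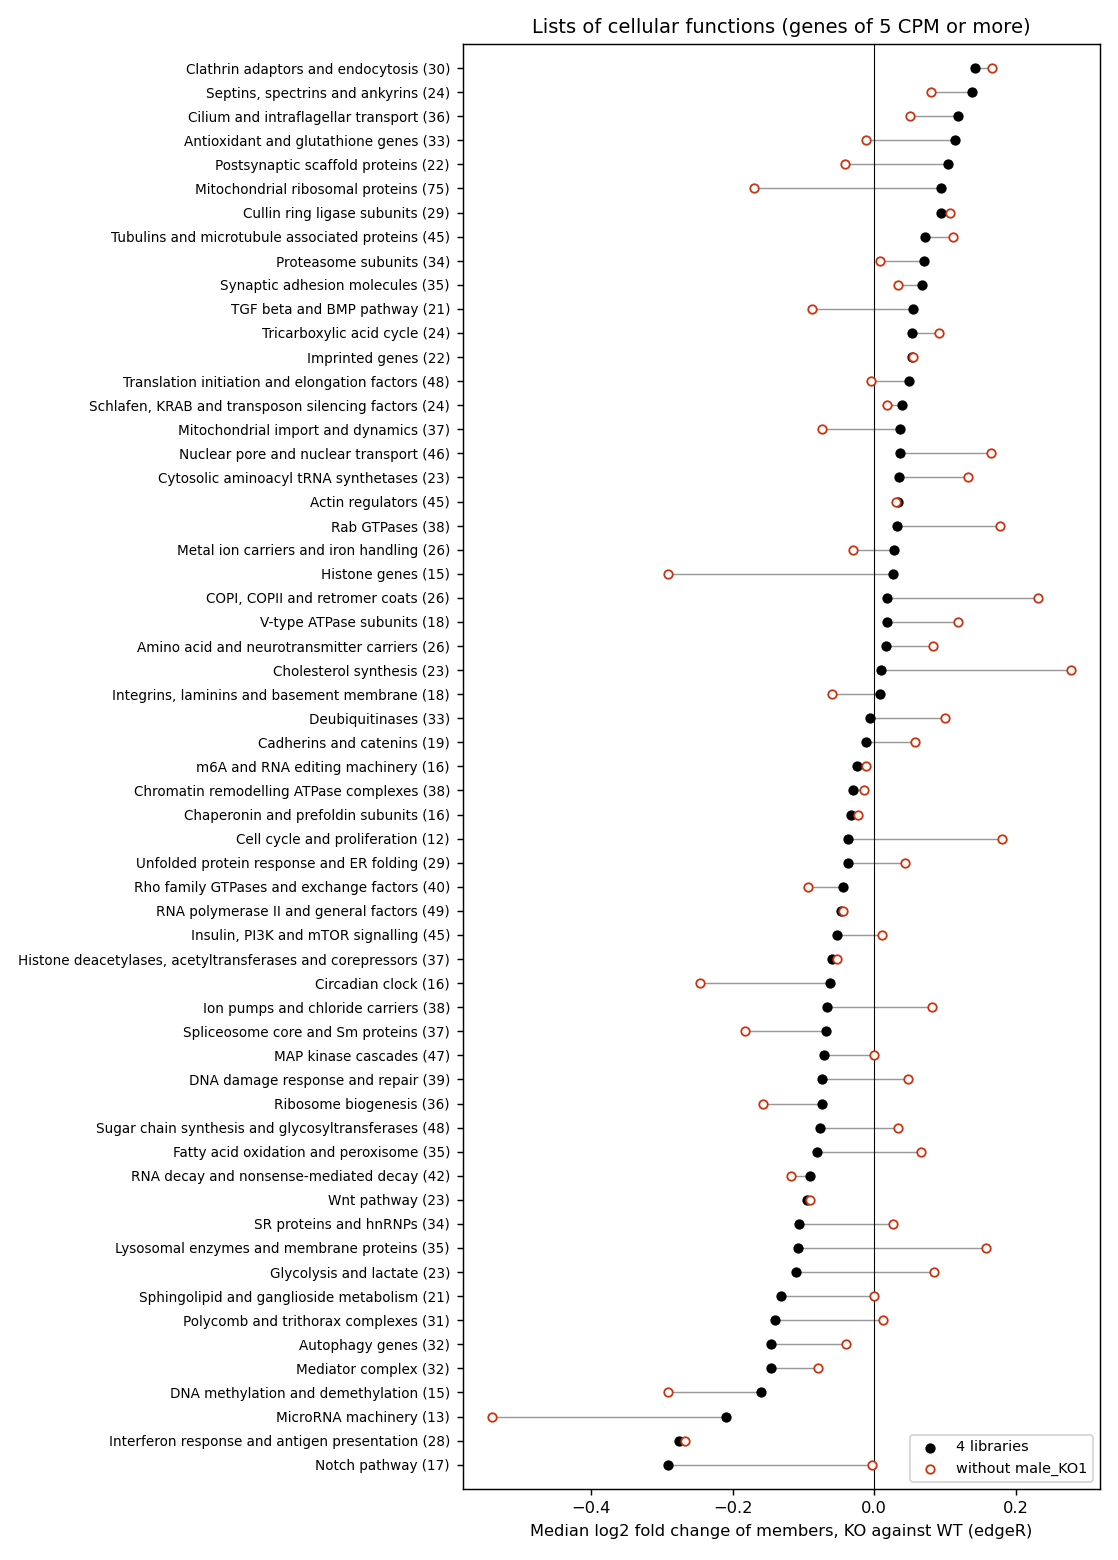
Median log2 fold change of KO against WT for 59 lists of cellular functions, with the number of members of 5 CPM or more in brackets. Black points use all 4 libraries and open red points leave out male_KO1, and a grey line joins them; the Notch list moves from -0.29 to -0.0034 and cholesterol synthesis from 0.01 to 0.28.

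By kind of gene, protein coding genes made up 259 of the 273 separated and higher genes (2.49% of 10415) and 125 of the 135 lower genes (1.2%). Long intergenic noncoding RNAs had 5 of 156 higher (3.21%) and 4 lower (2.56%). Of 666 processed pseudogenes 3 were higher (0.45%) and 1 lower (0.15%). Among the 2974 genes with the longest exons 3.16% were higher, and among the 2972 with the shortest 1.58%. By chromosome, the share separated and higher ran from 1.05% on chromosome 17 to 3.64% on chromosome 14, leaving out the 3 genes on Y. Chromosome 11, which carries Bhlha9, had 14 higher and 10 lower of 927 genes (1.51 and 1.08%).

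The authors' deposited table for males lists 150 genes, 140 higher and 10 lower, of which 111 reached 5 CPM. All 150 had the same sign in edgeR and did not overlap in the 4 libraries, and 149 were separated. None passed the edgeR adjusted threshold, all 150 had an unadjusted edgeR p below 0.05, and all 150 were among the 377 DESeq2 calls made here. The table and these values come from the same libraries. The median log2 fold change of the 140 genes was 1.49 in the authors' deposited table and 3.36 in edgeR. DESeq2 1.42.0 gave 3.33 for Calca and -4.78 for Penk, close to edgeR, against 2.71 and -3.15 in the authors' table. How the authors' version (DESeq2 1.14.1) scaled its fold changes was not matched here, so the 2 medians are not like measures.

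The genes separated in males were read in the female libraries, which share no sample with them. Among the 273 genes higher in male KO, the mean of female KO exceeded that of female WT for 99 (36.3%, against 50.2% of all 11893 genes). Their median log2 ratio in females was -0.30, and -0.13 without female_KO2. In females, 20 of them were higher in KO without overlap (7.33%, against 15.2% of all genes) and 62 lower (22.7%, against 15.6%). In female_KO2, 41 of the 273 (15.0%) stood at least 2-fold below each of the other 3 female libraries, against 1.45% of all genes. Calca, for example, stood at 343 and 855 CPM in female WT and at 715 and 5.88 CPM in female KO.

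Among the 135 genes lower in male KO, female KO exceeded female WT for 73 (54.1%), and 18 were lower without overlap in females (13.3%, against 15.6% of all genes). The difference between the sexes in the KO effect was itself tested with edgeR over all 8 libraries. No gene of 22013 passed an adjusted p of 0.05 (0%), 1041 (4.73%) had an unadjusted p below 0.05, and the Wald test of DESeq2 called 338. A difference between males and females was therefore not shown for any gene named here by the edgeR test.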

How the data were processed

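Sorted C-LTMRs gave 2 libraries per group, and per the labels' protocols cDNA took 13 PCR cycles (SMART-Seq v4) and libraries 12 (Nextera XT). Molecular identifiers are not mentioned, so counts include PCR copies. The deposited count file holds read counts per gene for 8 libraries. Per the file headers, reads were counted with featureCounts 1.6.1 over Ensembl GRCm38 release 97 exons, unstranded, with reads shared by overlapping genes counted in each, so antisense partners cannot be told apart. The submitters' processing notes give DESeq2 1.14.1, Subread 1.6.4 and bcl2fastq 2.17.1.14, and which aligner was used is not stated there. Mitochondrial genes had 0 counts.

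The authors' deposited male table holds a base mean (a signal), a log2 fold change with its error, a test statistic (a score) and p-values, per the file headers. The female table was not used.

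CPM values used raw library totals. The main test was edgeR's quasi-likelihood F test (edgeR 4.0.16 in R 4.3.3, TMM, robust, filterByExpr) on the 4 male libraries, two-sided, with Benjamini-Hochberg adjustment. DESeq2 1.42.0 was an alternative, and the difference between sexes used all 8 libraries. Median folds of a list stand beside those of all genes, with no set test. Standard errors are the log2 fold change divided by the root of F. P-values rest on the spread between 2 libraries a group, with the spread of each gene moderated across genes. The edgeR procedure was run on simulated counts for genes of 5 CPM or more, as a check of the direction and centring of fold changes. That check does not give the power or the rate of false calls of the main test.

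Named genes were Bhlha9, the 10 higher and 10 lower genes with the smallest p without overlap, the 8 of each direction above 100 CPM with the largest fold, up to 3 members per list, and the 8 of each direction with the highest CPM in the authors' table. One gene that these rules name is not reported here. Members, lists and rules were chosen with earlier results of these data known. The 66 lists are those shown in the plots of marker sums and of function lists. RefSeq windows were matched by symbol for 8383 of the 11893 genes.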

Additional observations from a re-analysis of the deposited data

How the results depend on the processing

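With 2 libraries a group the edgeR test on all genes made no call, and replicates spread most below 10 CPM. The count of genes past the threshold was 1 with no filter on low counts, 10 with genes of 5 CPM or more only, 377 with DESeq2 and 1 in the 4-group fit over 8 libraries. It was 0 with each library left out. The difference between the sexes gave 338 genes with DESeq2 and 0 otherwise. Bhlha9 had a log2 fold change of -9.47 (adjusted p = 0.0197) with no filter, -9.46 (5.23e-05) with genes of 5 CPM or more, -9.48 (9.94e-113) with DESeq2 and -9.47 (0.00344) in the 8-library fit. Leaving out each library in turn gave -9.97 to -9.13, with adjusted p from 0.159 to 0.339.

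Separated genes counted 129 higher and 27 lower at a ratio of 2, 535 and 422 at a looser ratio than 1.5, 88 and 30 at a mean of 20 CPM or more, and 624 and 279 at a mean of 1 CPM or more. Leaving out one library, which loosens the criterion, gave 547 to 1245 higher and 366 to 1192 lower genes. TMM scaling and an offset of 0.1 CPM stayed within 1.5 times of the counts given.

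Replicate numbers are shared by the male groups. The deviations of libraries with the same number had a correlation of 0.154 over genes, on 2 pairs only. That value cannot decide whether such libraries share more than a number. With a replicate block Bhlha9 had a log2 fold change of -9.49 (edgeR adjusted p = 0.206), and the block gave 0 genes past the threshold, for the comparison and for the difference between the sexes.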
